A study of Mus musculus with 12 samples.

Results

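The 10 genes Apoa1, Apoa2, Apoa4, Apoc1, Apoe, Apof, Apom, Apoh, Lcat and Scarb1, which encode proteins of high-density lipoprotein (HDL) or its handling, were followed in mouse liver RNA-Seq after postprandial exercise. They were chosen by name, with earlier results of these data known, and all 10 were found among the 17432 genes of the count table. Livers came from male wild-type C57BL/6J mice of 8 to 10 weeks, 6 Sedentary and 6 Exercise, and both groups had been held to daytime feeding and night fasting for 3 days and accustomed to the treadmill. On the day of the experiment, mice were fed and food was then removed. The Exercise group ran for 3 hours at 14 m/min while the Sedentary group did not run, and livers of both groups were taken when the run ended. Each library is numbered within its group, and the labels do not say in words that each library is 1 animal, so p-values measure the spread between these samples.

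HDL is built around apolipoprotein A-I, with A-II as its next most plentiful protein, and the liver secretes most of both. Lecithin-cholesterol acyltransferase, the product of Lcat, esterifies the cholesterol that HDL collects from tissues, and scavenger receptor class B type I, the product of Scarb1, lets hepatocytes take up those esters. Apolipoproteins E, C-I, F, M, A-IV and H ride on HDL and on triglyceride-rich particles, where some of them direct clearance, restrain lipases or carry small lipids.

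Coordinates are those of GRCm38 (mm10) with the GENCODE vM21 annotation, and gene identifiers are those of the deposited table. Apoe (11816) lies at chr7:19696109-19699188 and Apoc1 (11812) at chr7:19689481-19692660, both on the minus strand and 3448 bases apart. Apoa1 (11806) lies at chr9:46228580-46230466 and Apoa4 (11808) at chr9:46240696-46243459, both on the plus strand and 10229 bases apart. The other 6 are Apoa2 (11807) at chr1:171225054-171226379, Apof (103161) at chr10:128268671-128270153, Apoh (11818) at chr11:108343354-108414396, all on the plus strand, and Scarb1 (20778) at chr5:125277087-125341094, Lcat (16816) at chr8:105939551-105943382 and Apom (55938) at chr17:35128997-35132050, all on the minus strand. Annotated genes on the opposite strand overlap Apoa4, Apoh and Lcat, and the strand setting of the counting is not given in the sources used here, so reads of such partners could not be told apart. Annotated genes on the same strand overlap Apoh and Scarb1, where no strand setting would part the reads.

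RefSeq start-site windows (GRCm38.p6) matched 7 of the 10 genes, with 3 start sites for Apoe and 2 for Apoa2. The stretch before 1 start that no annotated exon covers is shown for Apoe, Lcat and Apoa2. Apoe and Lcat each passed the test as higher in Exercise, and Apoa2 did not pass. Capitals mark a glucocorticoid motif (AGAACA on either strand), the only match in these 3 stretches among 5 motifs searched on both strands. The other 4 were a nuclear receptor motif (AGGTCA), an HNF4A element (CAAAGTCCA), an HNF1 motif (GTTAAT) and a cyclic AMP motif (TGACGT). Apart from the HNF4A element, each motif is only a part of a full binding site, so a match is not a full site.
Apoe, 250 bases at chr7:19699189-19699438, minus strand: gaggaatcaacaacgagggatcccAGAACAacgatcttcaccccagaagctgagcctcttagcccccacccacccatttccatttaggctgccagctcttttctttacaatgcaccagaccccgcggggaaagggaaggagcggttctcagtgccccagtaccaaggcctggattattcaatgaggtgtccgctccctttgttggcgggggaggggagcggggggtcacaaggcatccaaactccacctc
Lcat, 187 bases at chr8:105943403-105943589, minus strand: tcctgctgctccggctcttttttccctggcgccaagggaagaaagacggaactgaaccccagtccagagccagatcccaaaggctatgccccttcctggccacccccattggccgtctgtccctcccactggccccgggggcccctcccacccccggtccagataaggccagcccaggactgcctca
Apoa2, 250 bases at chr1:171224804-171225053, plus strand: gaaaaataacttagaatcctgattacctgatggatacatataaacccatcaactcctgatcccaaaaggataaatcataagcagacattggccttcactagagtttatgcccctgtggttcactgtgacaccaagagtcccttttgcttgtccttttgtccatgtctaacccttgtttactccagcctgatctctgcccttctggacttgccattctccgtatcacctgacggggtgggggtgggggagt
The match in Apoe lies 226 to 221 bases before the start. Among the windows not shown, all of which but 1 for Apoe hold annotated exon bases, the glucocorticoid motif occurs 2 times in that of Apoa4 and 1 time in that of Apoh, the nuclear receptor motif 1 time each in that of Apoh and in the other of Apoa2, and the HNF1 motif 1 time in another of Apoe. Of 32851 mouse promoter windows of 250 bases, 16.1% hold the glucocorticoid motif. Of the same windows, 14% hold the nuclear receptor motif, 0.384% the HNF4A element, 6.43% the HNF1 motif and 6.47% the cyclic AMP motif. In the 12690 windows of tested genes, these shares were 11.2%, 11.6%, 0.441%, 4.43% and 9.34%, in the same order.

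Libraries were of nearly equal depth, 18745379 to 19324461 estimated counts, and every gene of the set had at least 2277 counts in each library. Albumin (Alb) took 9.47% to 12% of the counts. Exercise 3 was the library most often far from its group, in 2.31% of 11537 genes against 0.303% to 1.13% in the others. Of 12 heart muscle markers 6 were tested and all 6 were lower in Exercise (21.3% of all genes tested were). Genes this low pass the count filter mainly through the libraries that hold them, here Sedentary, so that direction was nearly fixed beforehand. The summed level of the 12 was 12 to 25.9 CPM in Sedentary and 0.637 to 13.2 CPM in Exercise. Exercise 1, at 240.7 counts, was near the Sedentary libraries (237.9 to 518.4), and the other Exercise libraries were at 11 to 27. These are traces beside the genes described here, and their part in the results was not tested. In bulk tissue, fewer cells of a type and less RNA per cell cannot be told apart.

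Together the 10 genes made up a large share of the liver transcriptome. Their summed FPKM (fragments scaled for transcript length and sequencing depth) was 9.35% ± 0.651 of all FPKM in Sedentary and 9.73% ± 0.631 in Exercise (SD, n = 6 each). On this per-length scale Apoe was the second most abundant of 17432 genes in Sedentary, Apoa2 the third, Apoc1 the fifth and Apoa1 ranked 12. The mean Sedentary FPKM was 19573 for Apoe, 18999 for Apoa2, 11465 for Apoc1, 7103 for Apoa1 and 2174 for Apoh. It then dropped to 388 for Lcat, 375 for Apom, 215 for Apof, 203 for Apoa4 and 57 for the receptor gene Scarb1. The order held apart in all 12 libraries except between Apoe and Apoa2 (1.09-fold apart, Apoe higher in 9 of 12), between Lcat and Apom (1.15-fold, Lcat higher in 10 of 12) and between Apof and Apoa4 (Apof higher in 4 of 12), whose ranges overlapped.

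**Figure D1:**
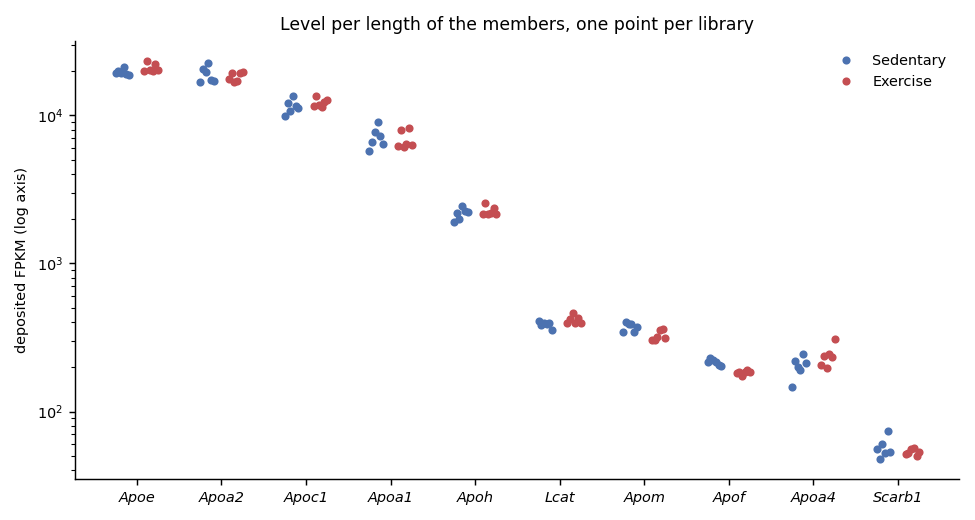
Deposited FPKM of the 10 genes on a log axis, 1 point per library, Sedentary in blue and Exercise in red, ordered by the Sedentary mean. The levels span from about 57 for Scarb1 to 19573 for Apoe, and the points of the 2 groups lie close together at every gene.

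Exercise moved these transcripts little. Apoe, Apoc1 and Lcat rose by 13.8% to 14.7% and Apof fell by 8.81%, while no gene of the set reached a 2-fold difference. Of all 12344 genes tested, 487 changed at least 2-fold at an adjusted p under 0.05. At an adjusted p under 0.05 (edgeR quasi-likelihood test, Benjamini-Hochberg over 12344 genes tested), 4 of 10 genes had changed, 3 higher and 1 lower. Of all genes tested, 42.4% changed, 21.1% higher and 21.3% lower, so the count for the set is near the background. Without Exercise 1 the genes past the threshold were Apoa4, Apoe and Lcat, and without Exercise 3 Apoe alone. The median absolute log2 fold change was 0.148 for the set, 0.128 for the 1201 genes whose mean reached 100 CPM (counts scaled to a common library size by TMM, the trimmed mean of M values) and 0.211 for all genes tested. Among those 1201 genes, 38.3% changed.

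**Figure D2:**
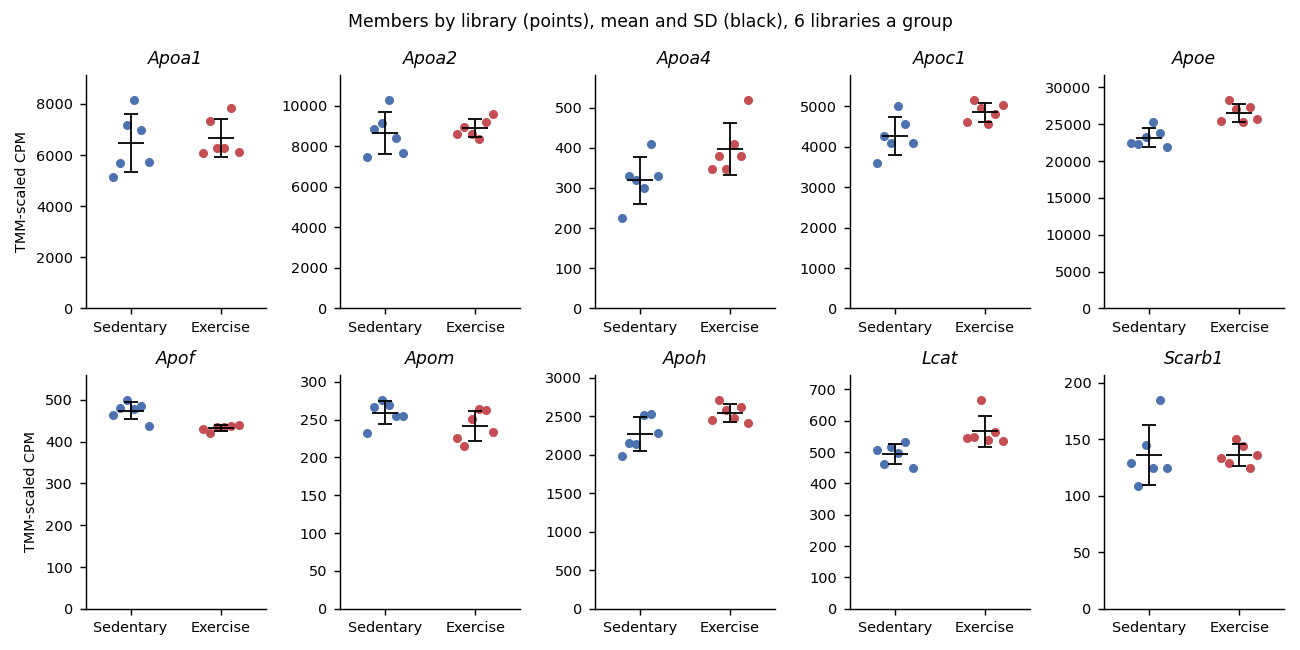
TMM-scaled CPM of each gene in each of the 6 Sedentary (blue) and 6 Exercise (red) libraries, with the mean and SD in black and every axis starting at 0. Lcat is the only panel in which the groups do not overlap (highest Sedentary 533.8 CPM, lowest Exercise 534.3 CPM).

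Apoe encodes the ligand by which remnant particles are cleared by liver receptors. Its level was 21859, 22858 and 25334 CPM (lowest, median and highest) in Sedentary and 25331, 26418 and 28343 CPM in Exercise. Of the 6 Exercise libraries, 5 lay above every Sedentary library, and Exercise 4 was the exception, just under Sedentary 4. The mean went from 23191 ± 1261 to 26558 ± 1221 CPM (SD, n = 6 each), a log2 fold change of 0.20 (SE 0.0619, 95% interval 0.0654 to 0.326, adjusted p = 0.0167 by edgeR). The two-sided exact permutation test gave p = 0.00433.

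Apoc1, its neighbour, encodes a small apolipoprotein that restrains lipoprotein lipase and activates LCAT. Apoc1 ran from 3604 through 4176 to 5004 CPM in Sedentary and from 4559 through 4880 to 5164 CPM in Exercise. All 6 Exercise libraries were above the Sedentary median and 2 above every Sedentary library, while Sedentary 1 was the lowest of all. The mean was 4265 ± 475 CPM in Sedentary and 4851 ± 240 CPM in Exercise (log2 fold change 0.19, SE 0.0736). Its adjusted p of 0.04996 by edgeR stood at the threshold, and it passed in only 3 of the 12 fits that each left out 1 library (exact permutation p = 0.0216).

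Apoa1 and Apoa2, the structural proteins of HDL, did not pass the test. Apoa1 was 5125, 6349 and 8171 CPM in Sedentary and 6068, 6285 and 7840 CPM in Exercise. Sedentary libraries lay on both sides of the Exercise range, 3 below it and 1 above. The Apoa1 log2 fold change was 0.04 (SE 0.106, 95% interval -0.182 to 0.263, adjusted p = 0.791 by edgeR), an interval from 11.9% lower to 20% higher that leaves room for a change as large as that of Apoe. Apoa2 was 7461, 8641 and 10305 CPM in Sedentary and 8356, 8801 and 9574 CPM in Exercise. The Apoa2 groups overlapped widely, with Sedentary libraries at both ends (log2 fold change 0.04, 95% interval -0.122 to 0.201, adjusted p = 0.714 by edgeR). For both genes the sign turned when libraries were scaled by total count alone.

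Apoa4 encodes an apolipoprotein of chylomicrons and HDL that the mouse liver also makes, and had the largest estimate of the set. Levels were 225.1, 324 and 408.2 CPM in Sedentary and 346.4, 379 and 519.8 CPM in Exercise. In Sedentary, 5 libraries lay below every Exercise library, but Sedentary 5 lay among them, and Exercise 6 stood far above the next at 409.2 CPM. The log2 fold change was 0.32 (SE 0.128, 95% interval 0.0424 to 0.593), with an adjusted p of 0.0605 by edgeR and an exact permutation p of 0.0368. It passed in 2 of the 12 fits that left out 1 library, at 0.405 without Sedentary 5 (adjusted p = 0.0124 by edgeR) and 0.357 without Exercise 1 (0.0477), and was lowest at 0.232 without Exercise 6 (0.11).

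Apof, which encodes a minor apolipoprotein, was the only gene of the set that passed as lower under TMM scaling. It stood at 438.5, 479.9 and 500.2 CPM in Sedentary and at 420.1, 435.6 and 439.2 CPM in Exercise. In Sedentary, 5 libraries lay above all 6 Exercise libraries, and only Sedentary 6 lay within their range. The mean went from 474.8 ± 21.1 to 433.0 ± 7.01 CPM (log2 fold change -0.13, SE 0.0501, adjusted p = 0.0403 by edgeR, exact permutation p = 0.00433). Its call was lost in 10 of the 12 fits that left out 1 library, with adjusted p up to 0.0909, while the log2 fold change stayed between -0.155 and -0.118. Apof was also the steadiest of the set: its coefficient of variation between libraries of a group was 3.04% on average, at percentile 1.25 among the 1201 genes of at least 100 CPM, whose median was 7.99%.

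Apom, the carrier of sphingosine 1-phosphate on HDL, was estimated lower but did not pass. Its levels were 232.6, 260.6 and 276.1 CPM in Sedentary and 214.8, 242.1 and 264.1 CPM in Exercise. In Exercise, 2 libraries lay below and 3 Sedentary libraries above the range of the other group (log2 fold change -0.0989, 95% interval -0.232 to 0.0345, adjusted p = 0.226 by edgeR). Apoh, which encodes beta-2-glycoprotein I, a phospholipid-binding plasma protein, was 1986, 2219 and 2535 CPM in Sedentary and 2412, 2529 and 2713 CPM in Exercise. All 6 Exercise libraries were above the Sedentary median and 3 above every Sedentary library. Its log2 fold change was 0.163 (SE 0.0681), with an adjusted p of 0.0629 by edgeR and an exact permutation p of 0.0281.

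Lcat, the cholesterol-esterifying enzyme of HDL, was the only gene of the set whose groups did not overlap, 1 of 10 where 22.3% of all genes tested did not. Levels were 448, 501 and 533.8 CPM in Sedentary and 534.3, 546 and 666.8 CPM in Exercise. The groups touched almost end to end, and Exercise 3 stood well above the next Exercise library at 564.2 CPM. The mean went from 493.7 ± 32.5 to 566.2 ± 50.3 CPM (log2 fold change 0.198, SE 0.0661, adjusted p = 0.0225 by edgeR), and the exact permutation p was 0.00216, the smallest that 6 against 6 libraries can give. Without Exercise 3 the log2 fold change was 0.15 (adjusted p = 0.0501) and without Sedentary 6 it was 0.171 (adjusted p = 0.0576), both by edgeR.

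Scarb1, the HDL receptor gene, had no detectable difference at this spread. It was 108.7, 126.9 and 185 CPM in Sedentary and 124.7, 134.8 and 150.2 CPM in Exercise. Sedentary 5 was the highest library and Sedentary 2 the lowest, so the Exercise range lay inside the Sedentary one. The means were 136.2 ± 26.6 and 136.3 ± 9.63 CPM, and the 95% interval of the log2 fold change, -0.214 to 0.217, does not exclude changes of the size seen at Apoe.

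The size of these small differences, and which of them passed the test, depended on how libraries were put on one scale, while the sign turned only for Apoa1, Apoa2 and Scarb1. TMM factors were 0.97 to 1.09 in Sedentary and 0.914 to 1.01 in Exercise. Scaled by total count alone, the median log2 fold change of all genes moved from -0.00276 to -0.0986, and the calls over all genes went from 2603 higher and 2626 lower to 1767 higher and 3735 lower. On that scale Apoe was 0.101 (adjusted p = 0.178 by edgeR), Lcat 0.101 (0.168) and Apoc1 0.092 (0.313), none past the threshold, while Apof and Apom were the 2 genes that passed, both lower, Apom at -0.196 (0.0195). The deposited FPKM values behaved likewise, with Apof at 201.9 to 229.3 in Sedentary and 174.9 to 189.8 in Exercise, without overlap, and Lcat at 357.8 to 405.6 and 393 to 463.9, with overlap. Alb itself was higher in Exercise (100396 ± 12673 and 118790 ± 7678 CPM, log2 fold change 0.24, adjusted p = 0.0253 by edgeR), and scaling by the total without it gave Apoe 0.12 and Apom -0.178.

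**Figure D3:**
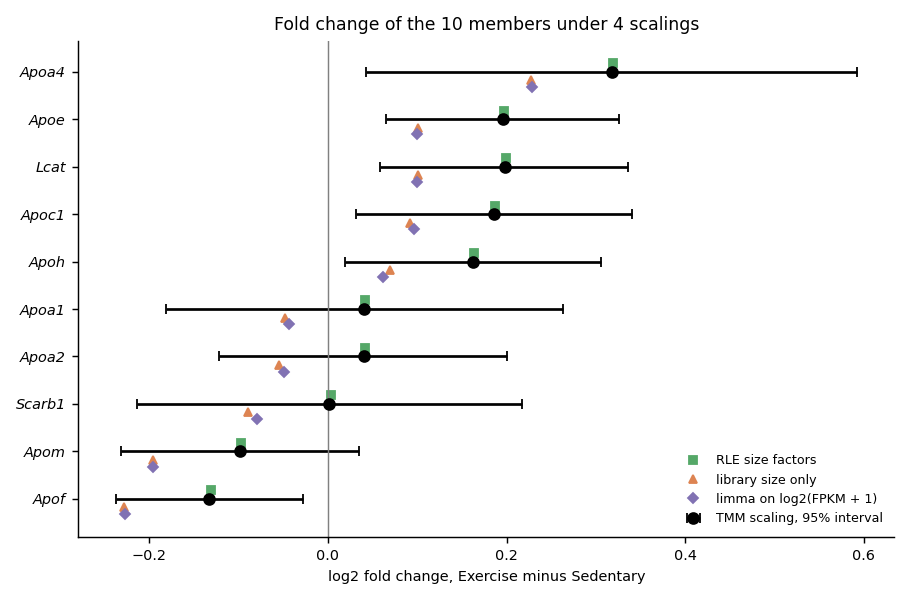
Log2 fold change of each gene, Exercise minus Sedentary, with the 95% interval under TMM scaling in black and the values under RLE size factors (squares), library size only (triangles) and FPKM (diamonds). Library size and FPKM shift every gene to the left by about the same amount, and Apoa1, Apoa2 and Scarb1 cross 0.

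Ratios of 2 genes within a library carry no scaling factor, and 7 of the 45 ratios among the 10 genes differed between groups (two-sided exact permutation test, Benjamini-Hochberg over 45). Apof was the lower partner in 5 of them and Apom in the other 2, so these ratios are not independent of each other. The ratios were added after seeing the data, and ratios among other genes were not counted. Singly, 42.4% of all genes tested changed and 22.3% had groups that did not overlap. The counts are therefore not read as particular to the set. The ratio of Apoe to Apof was 46.4 to 52.9 in Sedentary and 58.2 to 67.5 in Exercise, 25.5% higher without overlap (exact permutation p = 0.00216, adjusted p = 0.0244). Lcat to Apof was 0.962 to 1.1 in Sedentary and 1.22 to 1.53 in Exercise, again without overlap and 25.5% higher. The ratios of Apoc1 and Apoh to Apof were 25.2% and 23% higher, each without overlap and with the same p as the ratio of Apoe to Apof. Apoa4 to Apof was 37.2% higher with overlap (adjusted p = 0.0417 by the exact permutation test). Against Apom, Apoe was 22.9% and Apoh 20.4% higher (both adjusted p = 0.0325 by the exact permutation test). No ratio with Apoa1, Apoa2 or Scarb1 passed.

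**Figure D4:**
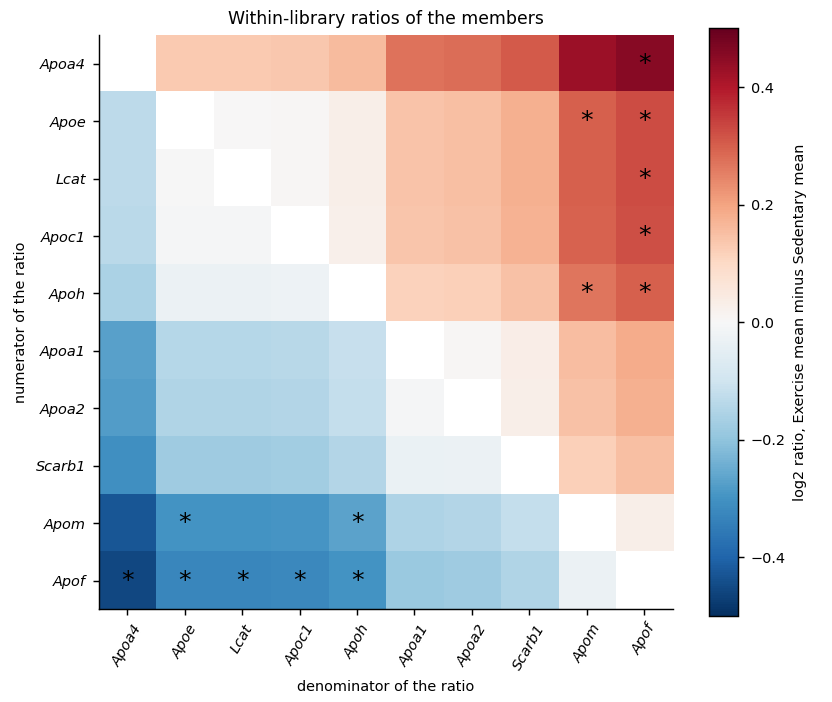
Difference of each within-library log2 ratio (row gene over column gene), Exercise mean minus Sedentary mean, with red for a higher ratio in Exercise and an asterisk where the adjusted p was under 0.05. The asterisks stand only in the rows and columns of Apof and Apom, 7 pairs in all.

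Within the Sedentary group, Sedentary 1 held the lowest level of 6 of the 10 genes and Sedentary 6 of 3, while Sedentary 4 and Sedentary 5 held the highest level of 4 each. Spread between libraries was widest for Apoa4 (mean coefficient of variation 17.4%), Apoa1 (14.5%) and Scarb1 (13.3%), and after Apof it was narrowest for Apoe (5.02%). Counts per FPKM unit shifted between groups by at most 0.00625 on the log2 scale for any gene of the set, so the effective length in the deposited estimates was nearly the same in both groups.

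The profile nearest to Apof over the 12 libraries, by the root mean square difference of standardized log2 levels among 7090 genes, was that of Grhpr (0.333 SD), a glyoxylate reductase, followed by 1810037I17Rik (0.414 SD) and Dph3 (0.415 SD). The profiles nearest to Apoa4 were less close, Gpatch1 (0.488 SD) and Rgs16 (0.554 SD) among them. Rgs16, a regulator of G protein signaling, itself rose by a log2 fold change of 1.84 (adjusted p = 0.00331 by edgeR), against 0.32 for Apoa4. Gpatch1, the nearer of them, was at 0.222 and did not pass (adjusted p = 0.0787 by edgeR). The profiles include the difference between groups, so the direction of genes picked in this way was largely fixed beforehand.

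Of 14 other apolipoproteins tested, 6 (42.9%) changed, 2 higher and 4 lower, near the 42.4% of all genes tested. Apol7a, an apolipoprotein L family member, fell by 1.03 on the log2 scale, from 92.5 ± 11.6 to 45.2 ± 5.97 CPM (edgeR, adjusted p = 5e-07). Apon fell by 0.28 (adjusted p = 0.00219) and Clu, the HDL-associated chaperone clusterin, rose by 0.28 (adjusted p = 0.00217), both on the log2 scale by edgeR. The other 3 were named after their values were seen. Saa4, the constitutive serum amyloid A, rose by a log2 fold change of 0.72. Apol9b and Apol9a had log2 fold changes of -0.64 and -0.72 and are near-identical copies whose reads the counting could split.

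Genes that load, remodel and remove HDL cholesterol changed in 13 of 37 tested (35.1%, against 42.4% of all genes tested), 6 higher and 7 lower. Their median log2 fold change was 0.0586 (-0.00276 over all genes tested). The balance moved with the scale, to 1 higher and 9 lower by library size only and 2 higher and 9 lower under either FPKM setting. Abca1, the transporter that gives cholesterol to lipid-poor apolipoprotein A-I, went down from 134.5 ± 16.2 to 100.9 ± 7.53 CPM without overlap (log2 fold change -0.42, adjusted p = 0.000269 by edgeR). A pair of genes of cholesteryl ester handling fell as well. Nceh1, a cholesteryl ester hydrolase, had a log2 fold change of -1.23 and Soat2, the hepatic cholesterol-esterifying enzyme, one of -0.48. All 3 of these log2 fold changes were larger in size than that of any of the 10 HDL genes (at most 0.32). The 3 genes were picked for the smallest p of 37 tested, so this says little about the list.

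Lipoprotein uptake receptors and their partners changed in 12 of 23 (52.2%, against 42.4% of all genes tested), 4 higher and 8 lower. The balance was 4 higher and 11 lower by library size only, and 4 higher and 2 lower at an adjusted p under 0.01. Sdc4, a heparan sulfate proteoglycan of the cell surface, rose by 1.24 on the log2 scale, from 195.6 ± 45.8 to 461.2 ± 50.6 CPM (edgeR, adjusted p = 1.21e-05). Mylip, the ubiquitin ligase that degrades low-density lipoprotein receptors, rose by a log2 fold change of 0.96, from 6.66 ± 1.1 to 12.9 ± 3.08 CPM. Sort1, the sorting receptor sortilin, stood at 12.4 ± 2.3 CPM in Sedentary and fell to 6.19 ± 1.06 CPM in Exercise (log2 fold change -1.0, by edgeR adjusted p = 1.15e-05).

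Transcription factors and cofactors of hepatic apolipoprotein genes changed in 31 of 45 (68.9%, against 42.4% of all genes tested). Of these, 18 were higher and 13 lower, and 8 changed at least 2-fold. Of all 12344 genes tested, 487 changed at least 2-fold. The balance was 17 higher and 17 lower by library size only. It was 18 higher and 16 lower on log2(FPKM + 0.1), and 18 higher and 15 lower on log2(FPKM + 1). Cebpb rose from 43.2 ± 6.81 to 109.1 ± 11.7 CPM (log2 fold change 1.34) and Foxo3, a forkhead factor restrained by insulin, from 33.4 ± 3.86 to 72.2 ± 7.13 CPM (log2 fold change 1.11). Nr1h4, which encodes the bile acid receptor FXR, fell by 0.73 on the log2 scale, from 157.4 ± 12.3 to 95 ± 5.48 CPM (edgeR, adjusted p = 1.03e-07). Hnf4a, a core hepatocyte factor named here after its values were seen, rose by 0.59 on the log2 scale, from 530.8 ± 45.4 to 798.4 ± 67.9 CPM (edgeR, adjusted p = 4.97e-06). The range of the 10 HDL genes, -0.13 to 0.32, lay inside that of these 45 regulators, but a range tends to widen with the number of genes. Beside genes of at least 100 CPM the set was not quieter (median absolute log2 fold change 0.148 against 0.128).

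**Figure D5:**
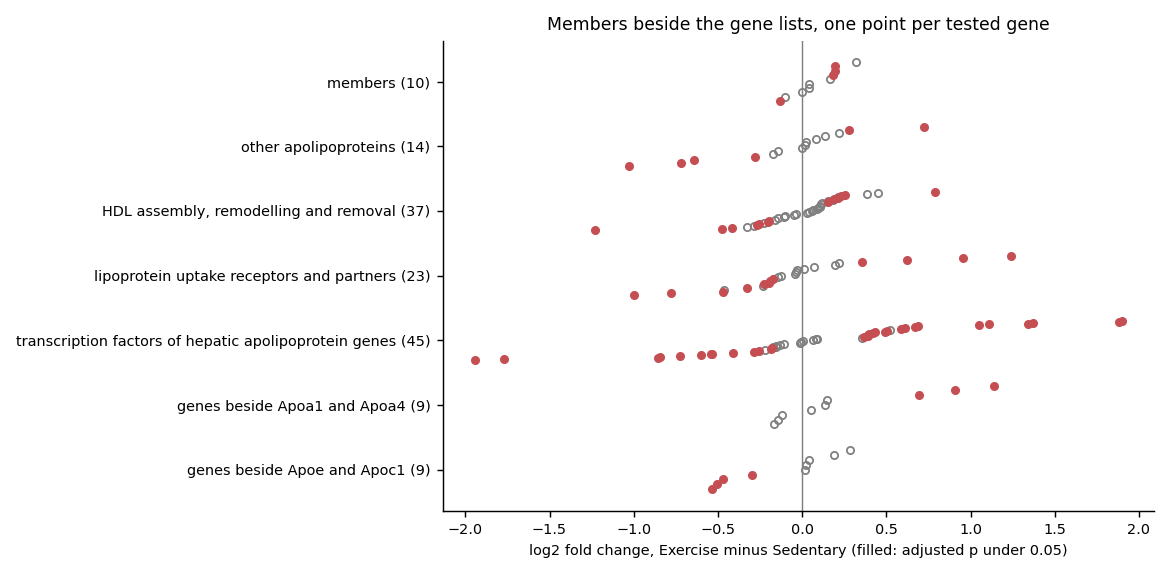
Log2 fold change, Exercise minus Sedentary, of every tested gene of the set and of 6 gene lists, filled in red where the adjusted p was under 0.05, with the number tested in parentheses. The 10 HDL genes at the top lie between -0.13 and 0.32, while the 45 regulators include 8 changes of at least 2-fold. Of all 12344 genes tested, 487 changed that much.

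Chromosomal neighbours of the apolipoprotein genes were read from the same fit, in which 42.4% of all genes tested changed. The share was 33.3% beside Apoa1 and Apoa4 and 44.4% beside Apoe and Apoc1. Beside Apoa1 and Apoa4, 3 of 9 genes changed, all higher (3 higher and 1 lower by library size only): Bud13, an RNA splicing factor (log2 fold change 1.14), Zpr1, a zinc finger protein (0.91), and Sik3, a salt-inducible kinase (0.69). Beside Apoe and Apoc1, 4 of 9 changed, all lower, while Apoe itself was higher. Tomm40, a subunit of the mitochondrial import pore, fell by 0.50 on the log2 scale, from 40.4 ± 4.77 to 28.5 ± 1.78 CPM (edgeR, adjusted p = 3.32e-05), and Nectin2 from 36 ± 5.26 to 24.8 ± 1.1 CPM (log2 fold change -0.54). Bcl3 fell by 0.47 and Cblc, named after its values were seen, fell by 0.30 on the log2 scale. Apoc2 and Apoc4, which lie on the far side of Apoc1 from Apoe, were at 0.02 each (adjusted p = 0.9 and 0.83 by edgeR).

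Cell type markers were read beside these results, where 42.4% of all genes tested changed. Hepatocyte markers were abundant, 120317 to 160801 CPM summed in Sedentary and 143980 to 168453 CPM in Exercise, with 3 of 10 higher. Macrophages also make Apoe and Apoc1, and 2 of 15 Kupffer cell and macrophage markers changed, Cd163 higher and Aif1 lower. Their sum was 142.7 to 238.1 CPM in Sedentary and 175.4 to 262.8 CPM in Exercise, small beside Apoe, and their part in its rise was not tested. The intestine is the other source of Apoa4, and of the 2 enterocyte markers tested, which liver also expresses, neither passed. Of 10 liver endothelial markers 3 were higher and 1 lower, of 10 stellate cell markers 1 was higher and 2 lower, and no marker passed among 5 of bile duct, 2 of lymphocytes and 5 of red blood cells.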

How the data were processed

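RNA was extracted with TRI Reagent and libraries were made with a BGI Optimal Dual-mode mRNA kit. The submitters' processing notes name Bowtie2 2.3.4.3, RSEM 1.3.1 and mm10. The strand setting and annotation are not given in the sources used here. The authors deposited 1 table with estimated counts per gene and library, which are not scaled between libraries (31.3% are not whole), and FPKM values, which the authors scaled for transcript length and depth. Every value column was assigned to a sample by its label.

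Estimated counts were rounded, filtered by filterByExpr (minimum 10 counts), scaled by TMM and compared in R 4.3.3 by edgeR's robust quasi-likelihood test (version 4.0.16, Benjamini-Hochberg threshold 0.05) over 12344 of 17432 genes, Exercise against Sedentary. Single genes were also compared by a two-sided exact permutation test of log2(CPM + 0.5). FPKM was analysed by limma 3.58.1 on log2(FPKM + 0.1) and log2(FPKM + 1). DESeq2 1.42.0, limma-voom, other scalings and filters, a strict threshold of 0.01 and leaving out each library were alternatives. Scripts were tested on simulated data. No pair of libraries was identical among 66, and libraries of a group were further apart than counting noise allows. Depth was 18745379 to 19324461 counts per library.

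The genes, lists and tests were chosen with earlier results of these data known. Named genes are the 10 members, the 3 genes of smallest p in each of 6 lists, the 3 nearest profiles (mean of at least 10 CPM) to the members with the largest rise and fall, and heart muscle markers as a group. Alb, Cd163, Aif1, Apoc2 and Apoc4 lie outside this rule and were named after their values were seen. One gene that this rule names is not reported here. Within-library ratios, the fit without Exercise 1 and 3 together and the scaling without Alb were added after seeing the data. Replicate numbers are shared by both groups, but same-numbered libraries did not deviate together (correlations -0.099 to 0.16), so they were not treated as pairs.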

Additional observations from a re-analysis of the deposited data

Results flagged for a closer look

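In 5 of 56 gene and group combinations, 1 library lay apart from the other 5 by more than Dixon's 95% limit for 6 samples, where chance gives about 2.8 (1 in 20 groups). Exercise 6 stood high for Apoa4, at 519.8 against 409.2 CPM for the next library, a gap of 0.638 of the group's range. Exercise 3 stood high for Lcat, at 666.8 against 564.2 CPM (0.774 of the range), and for Apon, at 235.2 against 211.8 CPM (0.724). Sedentary 4 stood high for Mylip, at 8.72 against 6.85 CPM (0.644), and Sedentary 2 stood low for Sik3, at 41.1 against 52.4 CPM (0.651).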

How the results depend on the processing

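Of the 4 genes past the threshold, Apoe kept its call in all 12 fits that left out 1 library, Lcat in 10, Apoc1 in 3 and Apof in 2, and the number past the threshold ranged from 1 (without Exercise 3, Apoe alone) to 5 (without Sedentary 5). It was 2 by library size only, 2 by library size without Alb, 2 by limma on log2(FPKM + 0.1), 2 by limma on log2(FPKM + 1) (Apof and Apom, lower, in each), 2 without the count filter (Apoe and Lcat), 2 without Exercise 1 and 3 together (Apoa4 and Apoe), 6 with DESeq2, and 0 at an adjusted p under 0.01. With the replicate number as a block the count was 3, and Apoc1 (0.192) and Apof (-0.132) no longer passed while Apoa4 (0.325, adjusted p = 0.019 by edgeR) did. Only 2 of 6 libraries correlated best with their own number. At an adjusted p under 0.01, HDL assembly genes numbered 6 (1 higher and 5 lower) and uptake genes 6 (4 higher and 2 lower). The share of all genes tested at that threshold was not counted.

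The sign turned only for the 3 genes nearest to 0. Apoa1 was -0.0479 by library size only, -0.0438 under both FPKM settings and -0.0306 without Alb. Apoa2 was -0.055, -0.0492 under both FPKM settings and -0.0364. Scarb1 was -0.0891, -0.0809 and -0.0798 with FPKM, and -0.0724, and it was -0.017 with upper quartile factors, -0.000156 without the filter and -0.0251 without Exercise 1 and 3 together. Leaving out 1 library gave log2 fold changes of -0.0184 to 0.119 for Apoa1 and -0.0563 to 0.113 for Scarb1. Apart from the constructions named, the cause of these differences was not tested. The spread between 6 libraries limited the genes described: Apoa1, Apoa2 and Scarb1 have intervals that include the estimates of Apoe and Lcat.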
